A study of Mus musculus with 6 samples.

Results

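The MYC-MAX-MXD network comprises the transcription factors MYC, MAX, MXD1, MXD3, MXD4, MXI1, MNT and MGA, which bind DNA as pairs. Its members here were all probe sets of the array annotated to exactly 1 of the gene symbols *Myc*, *Max*, *Mxd1*, *Mxd3*, *Mxd4*, *Mxi1*, *Mnt* and *Mga*. This gave 21 of 45037 probe sets, for 8 of 18193 genes. The measurements were log2 signals from Affymetrix mouse arrays of lumbar spinal cord microglia, with 3 arrays of SOD1 G93A mice and 3 of wild-type (WT) littermates. The SOD1 G93A mice carried a high copy number of a human SOD1 transgene with the G93A mutation of familial amyotrophic lateral sclerosis, on the mixed B6SJL background that the WT mice shared. All mice were males of 90 days. RNA for an array came from at least 6 mice pooled, so the replicate error here is between pools and not between mice. The cells were obtained by digesting lumbar cord, removing myelin and sorting viable CD11b+ cells, and CD11b also marks neutrophils and monocytes.

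MAX is the shared partner of the network. As a MYC-MAX pair it activates genes of ribosome assembly, nucleotide synthesis and growth, while pairs of MAX with MXD proteins or MNT bind the same DNA element, the E-box CACGTG, and recruit SIN3 and histone deacetylases to repress. MYC is best known for driving cell growth and division, and MXD proteins for the exit from the cell cycle during differentiation. MGA brings MAX into a variant Polycomb complex, PRC1.6. None of these activities is measured by an RNA level.

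The E-box is shown for the members and for the called targets that held it, because it is the element the network's proteins compete for. It was searched in the RefSeq promoter windows of build GRCm38.p6, which run from 250 bases before to 50 after each start. CACGTG reads the same on both strands, and no other motif was searched. It stood in 2349 of 32851 windows (7.15%). Windows were listed for 7 of the 8 members, all but *Myc*, and 3 of their 9 windows held it. Each 30-base stretch below is written 5′ to 3′ on the strand of the gene, with the E-box in capitals.
Max, chr12:76962234-76962263, minus strand: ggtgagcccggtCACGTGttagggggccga
Mnt, chr11:74830789-74830818, plus strand: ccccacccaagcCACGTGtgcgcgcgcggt
Mxd4, chr5:34187912-34187941, minus strand: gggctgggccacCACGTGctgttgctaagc
Pes1, chr11:3963965-3963994, plus strand: ccctaggcagggCACGTGcgggaggaagta
Slc16a1, chr3:104638452-104638481, plus strand: gcggcgccgggtCACGTGgcgggaaggggg
Cdk4, chr10:127063512-127063541, plus strand: aagggtgaagatCACGTGtccagaacgtcc
The E-box of *Max* lay 3 bases before the start, that of *Mnt* 123 and that of *Mxd4* 219. That of *Pes1* lay 2 bases after the start, that of *Slc16a1* 200 bases before it, and the *Cdk4* one shown, 11 bases before, was the nearest of 4 in its window. These distances are to the start that defined each window, which need not be the outermost start of the gene. A match is a description of the sequence, and binding was not measured.

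Some measures of the arrays moved with genotype. Monocyte markers had differences below zero in all 6 genes measured, and 5 of them passed the test. Their mean log2 signal per array was 9.46 to 9.84 in SOD1 G93A against 10.42 to 10.91 in WT. Neutrophil markers passed the test for 0 of 7 genes, all 7 with differences below zero, and their mean was 11.30 to 12.04 against 11.73 to 12.65. Markers of other cord cells also included called falls, in 4 of 7 astrocyte, 2 of 7 oligodendrocyte and 3 of 8 neurone genes, and 1 of 7 microglial markers (*Fcrls*) rose. The difference between 3′ and 5′ probe sets of *Gapdh*, which reflects RNA integrity and amplification, was 4.12 ± 0.59 (SD, n = 3) in SOD1 G93A and 4.89 ± 0.11 (SD, n = 3) in WT arrays (exact two-sided permutation p = 0.1, the smallest that 3 arrays against 3 allow). The *Gapdh* difference was 3.47 to 4.63 in SOD1 G93A and 4.79 to 5.01 in WT arrays, and so separated the genotypes. In each fit below that takes it as a covariate, its level and the genotype cannot be told apart. The same difference of beta-actin was 1.92 to 3.36 against 2.90 to 3.88, which overlapped (exact two-sided permutation p = 0.2). Both arrays numbered 1 stood apart from the other 4 on the second principal component. Fewer cells of a type and less RNA per cell cannot be told apart in such bulk RNA.

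*Myc* was the single member that passed the test. Its probe set 1424942_a_at had log2 signals of 8.84, 8.43 and 8.62 in the SOD1 G93A arrays and of 7.67, 7.87 and 7.81 in the WT arrays. Every SOD1 G93A array thus lay above every WT array. The means were 8.63 ± 0.20 and 7.79 ± 0.10 (SD, n = 3 each), a log2 difference of 0.84 (SE 0.13, 95% interval 0.55 to 1.14), or 1.79-fold, with an adjusted p of 0.0122 by limma. The study had named *Myc* from these same arrays, so this is no independent evidence of its direction. The call was lost without SOD1 G93A replicate 3 (0.74 to 0.94 over the 6 single omissions, adjusted p = 0.0558) and without WT replicate 3 (adjusted p = 0.0535). With the *Gapdh* 3′ to 5′ difference as a covariate the difference was 0.90 (SE 0.20, adjusted p = 0.108), in a fit where that covariate and the genotype cannot be told apart. With the mean of the neutrophil markers in the fit (an alternative chosen once the data had been seen) it was 0.83 (adjusted p = 0.0113). The monocyte markers, whose values are given above, separated the genotypes as *Myc* did. With their mean in the fit, likewise chosen late, the difference was 0.73 (SE 0.36, adjusted p = 0.292), and the level of these markers and the genotype cannot be told apart.

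Over all 21 probe sets, 1 passed, against 4.64% of all probe sets tested (2.71% higher and 1.93% lower in SOD1 G93A cells). The groups did not overlap in 2 of the 21, *Myc* and a minor probe set of *Mxd4*, against 24.7% of all. Taking for each gene its probe set of highest signal, 1 of 8 genes passed, against 5.61% of all genes (3.53% higher and 2.08% lower), and 1 of 8 did not overlap, against 27.5%. With 1 or 2 genes behind each count, the shares are not read as a property of the network. The median difference was -0.08 over the 21 probe sets, beside 0.003 over all probe sets, and of the 21 there were 8 above zero and 13 below. For 19 of the 21 the 95% interval lay within 1 log2 unit either side of zero, so changes beyond 2-fold were outside it.

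**Figure D1:**
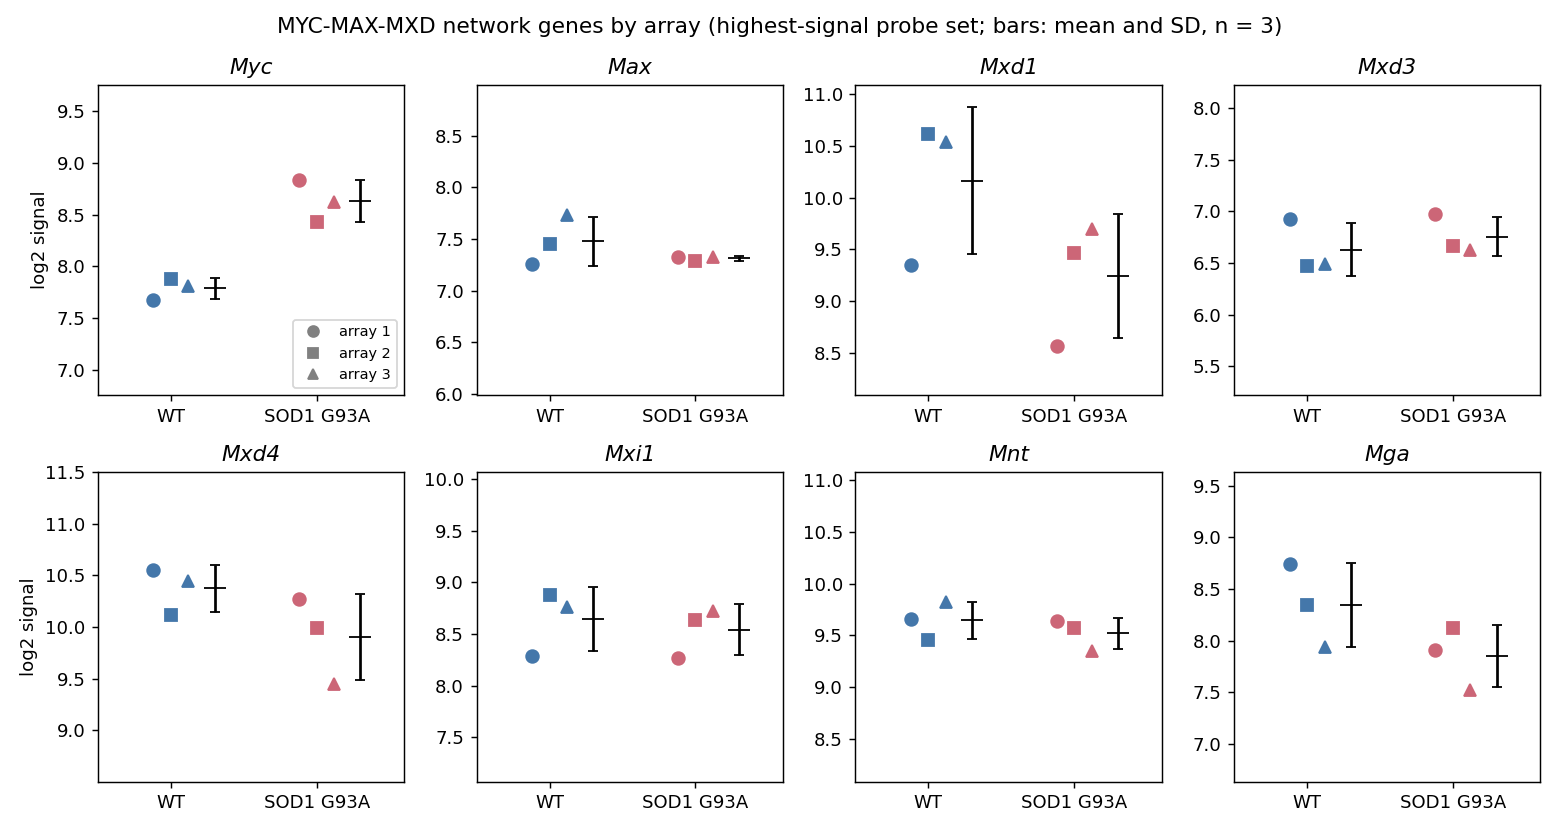
Log2 signal of the probe set of highest signal of each of the 8 members on the 3 SOD1 G93A and the 3 WT arrays, with the mean and SD of each genotype. The panels span ranges of equal width, and the genotypes are separate in *Myc* alone (8.43 to 8.84 against 7.67 to 7.87).

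MAX, the obligate partner, had log2 signals of 7.33, 7.29 and 7.32 in SOD1 G93A and 7.26, 7.45 and 7.73 in WT arrays. The SOD1 G93A arrays lay close together and inside the range of the WT arrays. The difference was -0.16 (SE 0.13, 95% interval -0.47 to 0.14, adjusted p = 0.565). The interval thus leaves room for a fall of under 0.5 and for a smaller rise.

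*Mxd1* had the largest difference of the 21 probe sets, and it did not pass the test, which had no replicate block. MXD1 replaces MYC as the partner of MAX when cells differentiate. Probe set 1434830_at gave log2 signals of 8.57, 9.46 and 9.70 in SOD1 G93A and of 9.34, 10.61 and 10.54 in WT arrays. Array 1 was the lowest of each genotype, and the groups overlapped. Between arrays of the same number the differences were -0.78, -1.15 and -0.84. The mean difference was -0.92 (SE 0.37, 95% interval -1.77 to -0.07), with an unadjusted p of 0.0365 and an adjusted p of 0.217 by limma. Without WT replicate 1 it was -1.33 (adjusted p = 0.0371), and without both arrays numbered 1 it was -0.99 (adjusted p = 0.00193).

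The signal of *Mxd1* followed the neutrophil markers from array to array. Over the 6 arrays Pearson's r with the mean of the 7 neutrophil markers was 0.996 (exact permutation p = 0.00278, adjusted 0.111 over 40 relations) and Spearman's rho 0.943 (exact permutation p = 0.0167, adjusted 0.133). Without the 2 arrays farthest from the median marker level r was 0.994. Neither relation passed the adjustment, and 3 arrays of a genotype are too few for a value within it. With the same neutrophil mean in the fit the difference of *Mxd1* was -0.10 (SE 0.13, adjusted p = 0.731), which restates that correlation and is no separate test. The monocyte markers separate the genotypes, so no r over all arrays is given for them. With their mean in the fit, also chosen once the data had been seen, the difference of *Mxd1* was 1.84 (SE 0.33, adjusted p = 0.0171), opposite in sign. The marker level and the genotype cannot be told apart in that fit, so no direction is read from it. The part of neutrophil or monocyte RNA in the difference of *Mxd1* was not tested. The other probe sets of the gene gave -0.41 (1455104_at, adjusted p = 0.323) and -0.16 (1422002_at, adjusted p = 0.457), and the first of these became -0.06 with the neutrophil mean and 0.65 with the monocyte mean. The neutrophil genes *S100a8*, *S100a9*, *Ngp*, *Ltf* and *Camp* had mean WT signals above 13, near the top of the range of the arrays, where saturation was not tested.

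**Figure D2:**
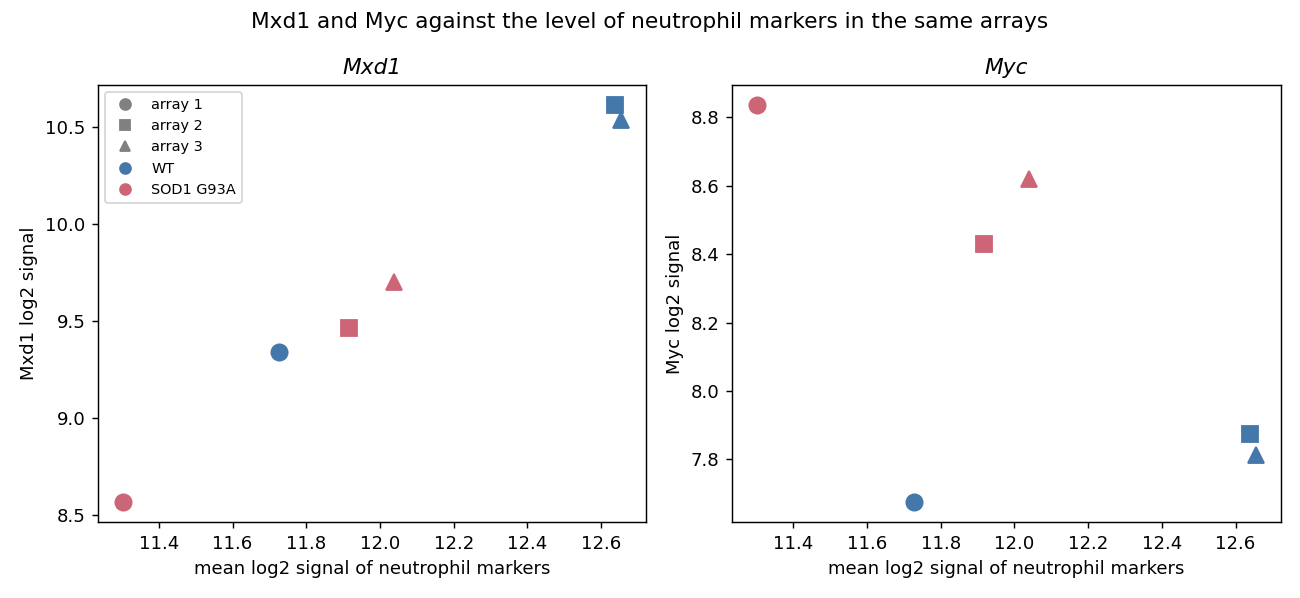
Log2 signal of *Mxd1* and of *Myc* on each array against the mean log2 signal of 7 neutrophil markers. *Mxd1* rises with the markers over all 6 arrays (r = 0.996), and in *Myc* the 3 SOD1 G93A arrays (8.43 to 8.84) lie above the 3 WT arrays (7.67 to 7.87). Of the WT arrays only number 1 has a marker level within the SOD1 G93A range.

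The other MXD genes did not pass the test. *Mxd3*, which unlike its relatives is expressed in dividing cells, had differences of 0.13, -0.08 and 0.06 in its 3 probe sets (adjusted p = 0.730, 0.875 and 0.904). Its highest probe set read 6.98, 6.67 and 6.63 in SOD1 G93A and 6.93, 6.47 and 6.49 in WT arrays, highest on array 1 of each genotype. *Mxi1*, which encodes MXD2 and is induced by hypoxia in many cells, read 8.27, 8.64 and 8.73 against 8.29, 8.88 and 8.76. Here array 1 was the lowest of each genotype, and the difference was -0.10 (adjusted p = 0.823), with -0.08 in the other probe set. In *Mxd1*, *Mxd3* and *Mxi1* only the probe set of highest signal had array 1 at the same extreme in both genotypes. Such an order was not particular to these genes. Array 1 was also the highest of each genotype in *Mxd4* 1434378_a_at, among others, and the lowest in *Mga* 1431232_a_at.

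*Mxd4*, like *Mxd1* a gene of resting and differentiated cells, gave different values by probe set. Probe set 1434378_a_at read 10.27, 9.996 and 9.45 in SOD1 G93A and 10.56, 10.12 and 10.45 in WT arrays, which overlapped. The difference was -0.47 (SE 0.21, 95% interval -0.94 to 0.00, adjusted p = 0.260). The SOD1 G93A arrays fell in the order of their *Gapdh* 3′ to 5′ difference (4.63, 4.28 and 3.47), and with that difference as a covariate the change was 0.10. That covariate and the genotype cannot be told apart, so no direction is read from this fit. Probe set 1422575_at did not overlap, with 5.68, 5.55 and 5.49 against 6.06, 6.09 and 5.76, a difference of -0.39 (SE 0.12, adjusted p = 0.117). The remaining probe sets gave 0.17 and 0.05.

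MNT, the most widely expressed antagonist of MYC, read 9.64, 9.58 and 9.35 in SOD1 G93A and 9.66, 9.46 and 9.82 in WT arrays. The genotypes overlapped, and the difference was -0.12 (SE 0.13, 95% interval -0.42 to 0.18, adjusted p = 0.678). The second probe set gave -0.02 (adjusted p = 0.960). With the *Gapdh* covariate, which cannot be told apart from the genotype, the values were 0.08 and 0.25. No direction is given for either probe set.

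*Mga* was the member with the most probe sets, and they differed in sign. The highest, 1434746_at, read 7.91, 8.12 and 7.52 in SOD1 G93A and 8.75, 8.35 and 7.94 in WT arrays, a difference of -0.49 (SE 0.22, unadjusted p = 0.0508, adjusted p = 0.259). Only the lowest WT array lay within the SOD1 G93A range. Probe sets 1431232_a_at and 1422646_at gave 0.25 and 0.31, neither passing the test, and the latter rested on a low value of 5.50 on WT array 1, since without that array it was -0.05. The last pair were near background, at mean signals of 5.01 and 4.95. The mean of the 5 probe sets differed by 0.00.

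**Figure D3:**
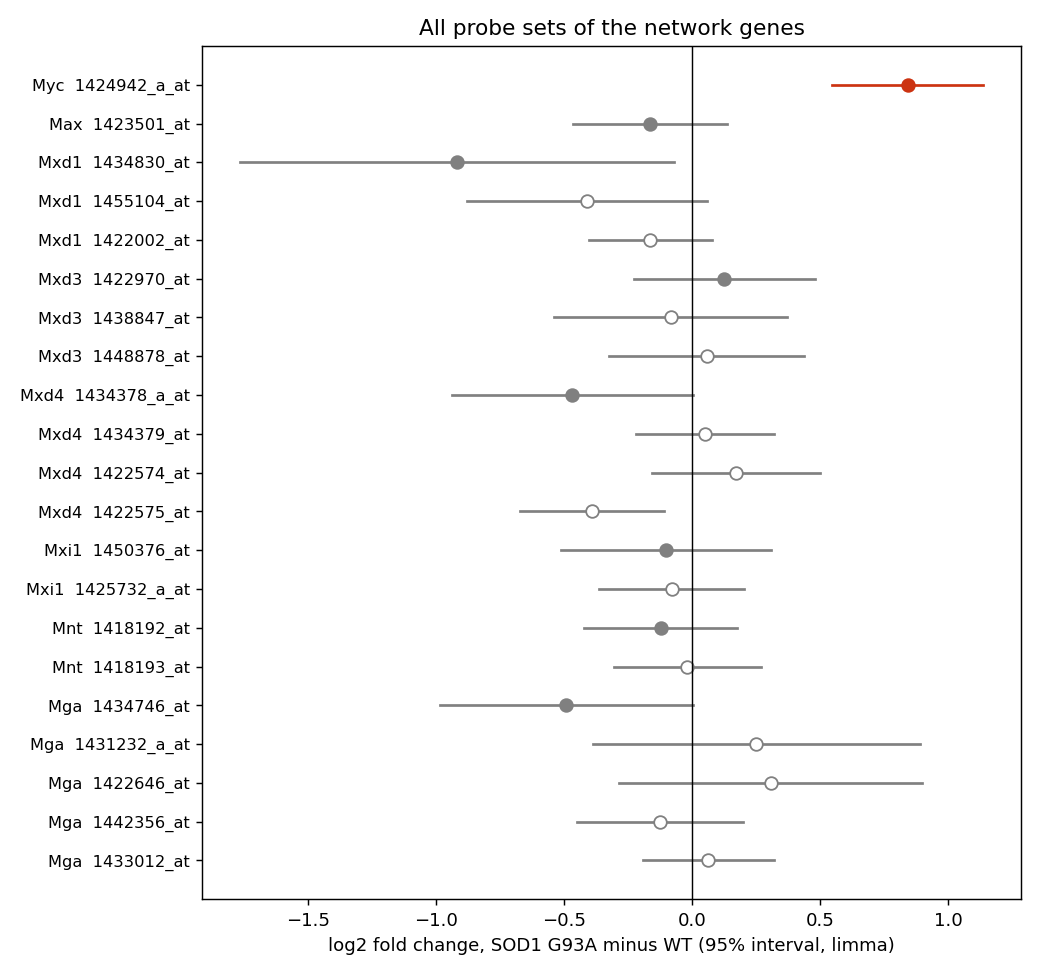
Log2 difference, SOD1 G93A minus WT, of the 21 probe sets of the network, with 95% intervals from limma. *Myc* (0.84) is the only probe set past an adjusted p of 0.05, and the widest interval belongs to *Mxd1* (-1.77 to -0.07).

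The genes that work beside the network held a single called change, *Ruvbl2*, where 5.61% of all genes were called. A count this small is not read as a difference from that share. Neither MYC paralogue passed, with *Mycn* at 0.07 and *Mycl* at -0.30 (adjusted p = 0.224). The parallel branch around MLX, through which cells sense glucose, gave 0 of 3 (*Mlxipl* 0.15, *Mlx* 0.01, *Mlxip* -0.06). Of its targets, *Arrdc4* differed by 0.87 (adjusted p = 0.0557) and *Txnip* by -0.16. Among 11 MYC cofactors 1 rose, *Ruvbl2*, an ATPase of chromatin remodelling complexes, by 0.65 (SE 0.12, adjusted p = 0.0215), while its partner *Ruvbl1* differed by 0.43 (adjusted p = 0.0629). The *Ruvbl2* call was lost without SOD1 G93A replicate 3 and without WT replicate 2 or 3. None of 11 genes of MYC turnover (median -0.04), of 7 SIN3 and NCoR corepressor genes (0.04) or of 8 PRC1.6 genes (0.09) passed. Their extremes were *Ppp2r5a* at -0.46 (adjusted p = 0.284) and *Sap30* at 0.38 (adjusted p = 0.189).

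Genes of ribosome assembly are the best described targets activated by MYC. Of 23 measured 4 rose and 0 fell, where 3.53% of all genes rose and 2.08% fell, and the median was 0.45 beside 0.02 over all genes. The groups did not overlap in 15, against 27.5% of all genes. Above zero lay 22 of 23, *Nop56* (-0.11) being the exception, against 54.4% of all genes. *Nop58*, a core protein of box C/D ribonucleoproteins, read 7.85, 7.56 and 7.55 in SOD1 G93A and 6.90, 7.10 and 6.84 in WT arrays, a difference of 0.71 (SE 0.13, adjusted p = 0.0199). *Pes1*, needed for the maturation of the large ribosomal subunit, read 8.46, 8.50 and 8.77 against 7.86, 7.83 and 7.92, a difference of 0.71 (SE 0.12, adjusted p = 0.0153). All arrays of one genotype lay above all of the other in both genes. Its second probe set gave 0.36 (adjusted p = 0.130).

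The other called members of this list were *Ddx21*, a nucleolar helicase (0.54, adjusted p = 0.0486), and *Wdr12*, which acts in a complex with PES1 (0.49, adjusted p = 0.0324). Their further probe sets did not pass, at 0.18 for *Ddx21* and at -0.19 and 0.03 for *Wdr12*. *Ncl*, which encodes nucleolin, had a larger difference of 0.86 that did not pass (adjusted p = 0.0763). The median lay between 0.37 and 0.48 over the 6 single omissions, but the number of genes called was 0 without SOD1 G93A replicate 2, without its replicate 3 or without WT replicate 3. With the *Gapdh* covariate 0 were called at a median of 0.50, in a fit that called 129 of all 45037 probe sets. The E-box shown above stood in 4 of the 20 promoter windows of the list, which were listed for 18 of its 24 genes. Of the 4 called genes it was found in *Pes1* alone, and a gene without a listed window could not show it.

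The list of targets in metabolism and growth gave 2 rises and 0 falls in 23 genes, with a median of 0.24, and 17 above zero. The shares over all genes given for ribosome assembly are the background here and for the lists below. *Cdk4*, the kinase that drives entry into the cell cycle, read 8.15, 8.49 and 8.83 in SOD1 G93A and 7.34, 7.74 and 6.93 in WT arrays, a difference of 1.15 (SE 0.23, adjusted p = 0.0267). Its other probe sets gave 1.07 (adjusted p = 0.0321) and 1.04 (adjusted p = 0.0541), and the genotypes did not overlap in any of the 3. *Slc16a1*, which encodes the lactate transporter MCT1, rose by 0.63 (SE 0.10, adjusted p = 0.0145), and its second probe set gave 0.26 (adjusted p = 0.316). The count was 0 to 3 over the single omissions and 0 with the *Gapdh* covariate (median 0.14). The E-box stood in 8 of the 26 windows of this list, which were listed for 20 of its 23 genes.

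**Figure D4:**
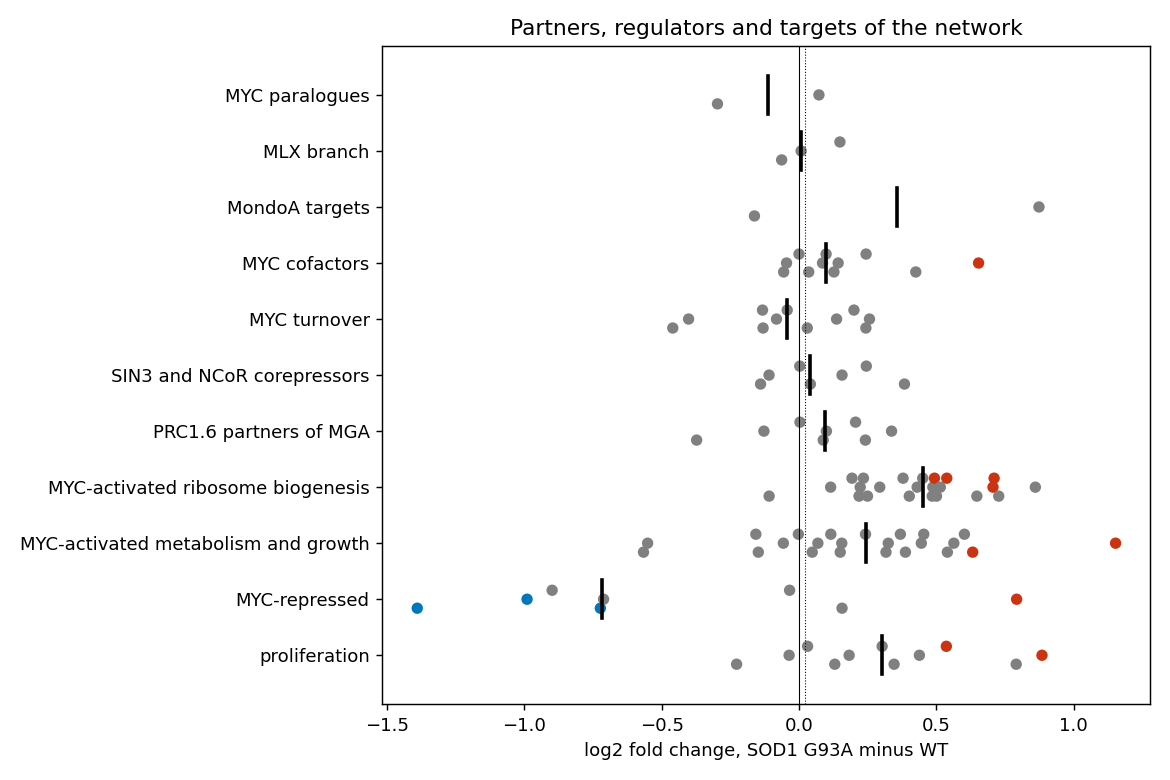
Log2 difference, SOD1 G93A minus WT, of each measured gene in the lists around the network, 1 point per gene, with the called genes marked. The ribosome biogenesis genes lie above zero in 22 of 23, and the MYC-repressed genes have the lowest median (-0.72).

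Genes that MYC is known to repress moved both ways. Of 8 measured, 3 fell and 1 rose, with a median of -0.72. *Gadd45a*, a stress-induced gene of growth arrest, fell by 1.39 (adjusted p = 0.00392), *Ndrg1*, a differentiation gene, by 0.99 (adjusted p = 0.00312), and *Cdkn1b*, the cell cycle inhibitor p27, by 0.72 (adjusted p = 0.00833). The second probe set of *Cdkn1b* gave -0.44 (adjusted p = 0.171). *Cdkn1a*, the inhibitor p21, rose by 0.79 (adjusted p = 0.00803), and its second probe set rose by 1.13 (adjusted p = 0.00391). Of the 5 probe sets of *Ndrg1* 2 were called, and the others ranged from -0.47 to 0.02. The count of falls was 3 or 4 over the single omissions, and 0 with the *Gapdh* covariate, at a median of -0.54. None of the 9 promoter windows listed for 6 of these 8 genes held the E-box. The monocyte and cord cell markers given above fell on the same arrays as these target lists shifted, and their part in the lists was not tested. With the neutrophil mean in the fit the median was 0.31 for ribosome assembly (5 rises and 1 fall), 0.26 for metabolism and growth (5 and 2) and -0.87 for the repressed genes (1 and 5). The neutrophil fit called 4177 of 45037 probe sets, beside 2089 without a covariate, so the shares given above are not its background. With the monocyte mean the medians were 0.093 (1 rise and 1 fall), 0.093 (2 and 0) and -0.88 (0 and 2). That fit called 2092 probe sets, and in it the monocyte level and the genotype cannot be told apart. *Cdkn1a* and *Gadd45a* were picked by the study on these arrays and are not independent evidence of a direction.

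Of 11 proliferation genes 2 rose, *Pcna*, the sliding clamp of DNA replication, by 0.88 (adjusted p = 0.00451) and *Mcm2*, of the replicative helicase, by 0.54 (adjusted p = 0.0484). The second probe set of *Mcm2* gave 1.38 (adjusted p = 0.00305). The median of the list was 0.30, but -0.04 without both arrays numbered 1. *Pcna* too was picked by the study on these arrays, and the study's qPCR at 90 days also had it higher.

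By correlation over the 6 arrays, among 14055 genes compared, the genes most like *Myc* were *Nde1* (r = 0.998), *Emc4* (0.997), *Tmem184c*, *Bbs4* and *Ncln* (0.996 each). The most opposite were *Insr*, *Sult5a1* and *Fam160b2* (-0.994 each), *Bach1* and *Map3k5* (-0.993 each). The arrays shared by all genes separate by genotype in *Myc*, and 781 genes had an r above 0.9, so these values describe the order of the arrays only.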

How the data were processed

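RNA of CD11b+ lumbar cells of SOD1 G93A and WT males was measured on 3 arrays each. The values the authors deposited are log2 signals of each probe set, made by RMA in Partek (no version given) according to the submitters' processing notes. The study's methods name another algorithm, MAS 5.0, and a double amplification of small RNA amounts. Genes were named from the platform's annotation, in which 34945 probe sets have 1 symbol, 932 several and 9160 none. After 64 controls were left out, limma 3.58.1 (lmFit, eBayes) in R 4.3.3 was fitted on all 45037 probe sets with genotype as the term. A call is a Benjamini-Hochberg adjusted p under 0.05 over all of them. A gene's value is that of its probe set of highest mean signal. The members and the 19 lists (181 genes, 166 measured) were chosen with earlier results of these data known, so no list is given a test. Genes named are the members, called list genes and list extremes.

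Alternatives were other tests, probe set choices, minimum signals, scalings, array weights, a replicate block, the *Gapdh* covariate and omitted arrays, and, added after the data were seen, neutrophil and monocyte marker means as covariates. The study's methods state that the groups were matched by litter, but not that the replicate numbers mark litters. An array gives no read depth, and precision is limited by the number of arrays. On simulated data over 45037 probe sets, limma recovered 4 of 50 changes of 0.5 log2 units, 33 of 50 of 1 and 48 of 50 of 2, with 7 false calls. Each simulated size had 50 changed probe sets, 44837 were left unchanged, and the noise was independent between probe sets. The deposited data had 2089 calls and arrays numbered 1 that stood apart, so these figures do not measure recovery or false calls there. Correlations and exact tests used scipy 1.17.1, and figures matplotlib 3.10.9.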

Additional observations from a re-analysis of the deposited data

How the results depend on the processing

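The number of probe sets called, 2089 of 45037, was 0 by the methods' t-test (5697 at an unadjusted p under 0.05) and 13 by its equal-variance form. Adjusted over 1 probe set per gene, 1206 of 18193 genes were called, beside 1021 of these genes in the fit reported. At the methods' thresholds, taken here as the study's fold cut-off with an unadjusted limma p under 0.05, 1081 probe sets passed. The count was 3549 with array weights, 129 with the *Gapdh* covariate, 3796 without both arrays numbered 1 and 4177 with the neutrophil covariate (added after seeing the data). It was 479 to 2195 over single omissions. In the same order of settings that changed it, the 1 member probe set called became 0, 0, 2 (methods' thresholds), 0 (*Gapdh* covariate), 2 (without arrays 1), 4 (neutrophil covariate) and 2 (monocyte covariate, added likewise), and 0 to 2 over single omissions. Member genes called changed alike, but were 3 with the neutrophil and 1 with the monocyte covariate. With trend and robust, minimum signals of 5 or 7, median-centred arrays or quantile normalization, 1807 to 2274 probe sets and 1 member were called. *Myc* had an adjusted p of 0.285 by the methods' t-test.

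With the replicate number as a block, 4519 probe sets, 3 member probe sets and 3 member genes were called, among them *Mxd1* (adjusted p = 0.00194) and *Mga* 1434746_at (0.0498). Deviations of same-numbered arrays correlated at 0.444, 0.240 and 0.0288, and the groups were matched by litter, but with 1 correlation under 0.1 and no label that ties a number to a litter the numbers were not taken as pairs. SOD1 G93A array 3 correlated best with WT array 2 (0.400).

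The directions that reversed were of probe sets uncalled in the test reported. With the *Gapdh* covariate *Mxd3* 1438847_at was 0.20, *Mxd4* 1434378_a_at 0.10 and 1434379_at -0.032, *Mnt* 0.080 and 0.25, and *Mga* 1431232_a_at -0.38 and 1442356_at 0.18. With array weights *Mxd3* 1448878_at was -0.093 and *Mxd4* 1434379_at -0.00012. Without both arrays 1 these were -0.20 and -0.020, and *Mga* 1422646_at -0.064. With quantile normalization *Mnt* 1418193_at was 0.0023. With the neutrophil covariate *Mxd3* 1422970_at was -0.16, *Mxd4* 1422574_at -0.039, *Mxi1* 1450376_at 0.25 and *Mga* 1433012_at -0.0082. With the monocyte covariate *Max* was 0.26, *Mxd1* 1434830_at 1.84 and 1455104_at 0.65, *Mxd3* 1422970_at -0.83 and 1448878_at -0.14, *Mxd4* 1422574_at -0.54, *Mxi1* 1450376_at 1.07 and *Mga* 1433012_at -0.22. Over single omissions *Mxd3* 1438847_at ran from -0.28 to 0.090 and 1448878_at from -0.11 to 0.17, *Mxd4* 1434379_at from -0.030 to 0.14, *Mxi1* 1450376_at from -0.28 to 0.038, *Mnt* 1418193_at from -0.11 to 0.087, and *Mga* 1422646_at from -0.046 to 0.53 and 1433012_at from -0.0017 to 0.13. The causes were not tested. In the fits with the *Gapdh* or the monocyte covariate, the covariate and the genotype cannot be told apart.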

Other observations

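With the neutrophil marker mean as a covariate, an alternative chosen after seeing the data, 3 further member probe sets passed the test, *Mxd4* 1434378_a_at at -0.77 (adjusted p = 0.0369), *Mga* 1434746_at at -0.79 (adjusted p = 0.0412) and *Mga* 1431232_a_at at 0.81 (adjusted p = 0.0159). The called probe sets of *Mga* were thus of opposite sign. The same neutrophil fit called 4177 of all 45037 probe sets, beside 2089 without the covariate. With the monocyte mean instead, *Mga* 1431232_a_at was 2.15 (adjusted p = 0.0166). In that fit the marker level and the genotype cannot be told apart. Over the 6 arrays *Mxi1* correlated with the neutrophil mean at r = 0.896 (exact permutation p = 0.0222, adjusted 0.148 over 40 relations), or 0.861 without the 2 farthest arrays, with a rho of 0.943 (exact permutation p = 0.0167, adjusted 0.133). *Mxd3* correlated at r = -0.946 (exact permutation p = 0.0139, adjusted 0.139), or -0.891 without those arrays, with a rho of -0.943 (exact permutation p = 0.0167, adjusted 0.133). None of these relations passed the adjustment.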
